A study of Mus musculus with 3 samples.

Results

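The genes described here are 10 feedback and target genes of STAT5 and ERK signalling, taken by symbol from a table of 28074 gene symbols measured in mouse leukemias: Socs1, Socs2, Socs3, Cish, Pim1, Pim2, Pim3, Dusp6, Spry2 and Spred1. Each was on 1 row of the table, and all 10 passed the filter used for expressed genes, a mean of at least 1 TPM (a transcript level per length, scaled to a fixed total per library), which 15181 genes passed. RNA was sequenced from acute myeloid leukemia (AML) cells of 3 moribund mice, which make up 1 group. The genotype given for each mouse is miR-196b-/-, Dnmt3a fl/fl, Flt3 ITD/ITD, Mx1Cre, and the titles write the same leukemias as Dnmt3a+/-. Mx1Cre places the recombinase under the interferon-inducible Mx1 promoter, so excision is not limited to one blood lineage. The cells came from the spleen and were enriched with magnetic beads for c-Kit, a receptor of immature blood cells. The labels used here give no age. Leukemias with miR-196b intact were not analysed here, so the values describe the knockout leukemias and how they differ from one another. The numbers 1, 2 and 3 given to the mice follow their accessions and carry no other meaning.

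Flt3 is a receptor tyrosine kinase of blood progenitors. An internal tandem duplication (ITD) makes it signal without ligand, and the mutant receptor is known for activating STAT5, besides the RAS to ERK cascade. STAT5 is a transcription factor that switches on its own brakes: Cish and the Socs proteins bind activated cytokine receptors or Janus kinases and shut signalling down. It also switches on the Pim kinases, which favour survival and protein synthesis and substitute for part of the receptor's output. ERK signalling is dampened in a similar loop by Dusp6, a phosphatase that removes the activating phosphates of ERK, and by Spry2 and Spred1, which act between the receptor and RAF.

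The gene deleted in all 3 mice is a microRNA of the Hoxa cluster. Its mature 5′ strand lies at chr6:52230129-52230150 on the minus strand (GRCm38, RefSeq), and it is shown with the mature strand of miR-196a, which the labels do not list as deleted. Capitals mark the seed, bases 2 to 8 from the 5′ end, which is the same in both. They differ by C12A, counted from the 5′ end with the base of miR-196b first.
miR-196b-5p: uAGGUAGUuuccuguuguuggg
miR-196a-5p: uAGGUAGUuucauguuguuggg

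The promoters of the members were searched for the letters that STAT5, and the ETS and AP-1 factors downstream of ERK, are known to bind. A RefSeq window (GRCm38.p6) from 250 bases before to 50 after a gene's start was found for 9 of the 10. Socs2 had none. The letters TTCNNNGAA, the textbook STAT5 site, occur in 8.30% of the 32851 windows of that table. They read the same on both strands, so each match is counted once. Among the members they occurred in 2 genes, Cish and Socs3. The windows of 30 bases below show these matches in capitals. That of Cish is at chr9:107296654-107296683 on the plus strand and that of Socs3 at chr11:117969501-117969530 on the minus strand.
Cish: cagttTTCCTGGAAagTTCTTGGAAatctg
Socs3: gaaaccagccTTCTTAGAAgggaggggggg
In Cish the matches are 2 bases apart and begin at the first transcribed base of the RefSeq model. In Socs3 the match lies before the start used for its window. It is still inside the RefSeq span of the gene, chr11:117966079-117970336, so it is not upstream of the whole gene. The ETS core CCGGAA, searched on both strands, was found in Socs1 (3 matches) and Spry2 (1 match) and in 14.9% of all windows. The AP-1 letters TGANTCA were found in no member window and in 7.81% of all windows. No match overlapped another. A match describes the letters and not binding. The members sit on 9 chromosomes. Socs2 and Dusp6 share chromosome 10, 3.85 Mb apart.

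The most abundant member was Pim1, the founding gene of the PIM kinases. It stood at 414, 353 and 219 TPM in mice 1, 2 and 3, a mean of 329 ± 99.8 TPM (SD, n = 3). Its mean was above that of 97.6% of expressed genes. Mice 1 and 2 were close and mouse 3 was low. In bulk RNA such a difference cannot be told apart as fewer cells that express the gene or less RNA per cell, and this holds for every value below.

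Pim2, a kinase of the same family and like it active once made, stood at 80.3, 32.8 and 24.5 TPM (45.8 ± 30.1 TPM). Mouse 1 was 2.45 times as high as mouse 2 and 3.28 times as high as mouse 3, and the SD on the log2(TPM + 1) scale, 0.87, was the widest among the members. Pim3 was the lowest of the family, at 22.3, 14.3 and 11.4 TPM (16.0 ± 5.66 TPM). Over the family Pim1 made up 84.2% of the summed TPM, and the sums were 517, 400.2 and 255 TPM. The proportions of the kinases differed between mice: Pim1 was 5.16 times as high as Pim2 in mouse 1, 10.8 times in mouse 2 and 8.93 times in mouse 3.

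Among the SOCS family Socs2 led. This regulator of growth hormone and cytokine receptors stood at 190.3, 129.7 and 119 TPM (146 ± 38.4 TPM), above 94.0% of expressed genes. Its SD of 0.36 on the log2(TPM + 1) scale was the narrowest among the members, and mice 2 and 3 differed by only 0.12 log2 units. Cish, an inhibitor that STAT5 induces, was next at 93.4, 48.6 and 32.0 TPM (58.0 ± 31.8 TPM). Here all 3 mice were apart, and mouse 1 was 2.92 times as high as mouse 3. Socs2 was 2.04, 2.67 and 3.72 times as high as Cish in mice 1, 2 and 3, so the pair did not keep 1 proportion. Cish overlaps exons of Gm17040 and Gm17041 on the opposite strand. Gm17041 had 17.6, 10.4 and 4.07 TPM in the same mice. The labels call the libraries stranded, and whether the quantification used the strand is not given in the sources used here. Exons of Pim1 overlap Gm26885 on the opposite strand, which was not analysed here, and the other 8 members overlap no annotated exon of another gene in GENCODE M21.

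Socs1, a direct inhibitor of Janus kinases and a brake on interferon signalling, stood at 23.1, 12.8 and 9.36 TPM (15.1 ± 7.16 TPM). Mouse 1 was the high one, 2.47 times as high as mouse 3, as in Cish but at a lower level. Socs3, best known as a brake on STAT3 signalling from gp130 and G-CSF receptors, had a different profile: 11.04, 12.9 and 5.38 TPM (9.78 ± 3.92 TPM). It was the only member highest in mouse 2, by 0.21 log2 units over mouse 1, and mouse 3 was the low one. Summed over the family, the values were 318, 204 and 166 TPM, and Socs2 made up 63.8%.

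Of the ERK feedback genes Spred1 was the highest, at 28.0, 16.0 and 14.6 TPM (19.5 ± 7.39 TPM). Mice 2 and 3 were near each other and mouse 1 was 1.92 times as high as mouse 3. Dusp6 stood at 19.4, 10.6 and 7.94 TPM (12.7 ± 5.996 TPM), with a 2.44-fold range. Spry2 was the lowest member, at 7.85, 3.49 and 5.23 TPM (5.52 ± 2.20 TPM). It was the only member lowest in mouse 2. The summed values of the 3 genes were 55.3, 30.1 and 27.8 TPM, so the ERK feedback genes together stayed below Cish alone in each mouse.

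**Figure D1:**
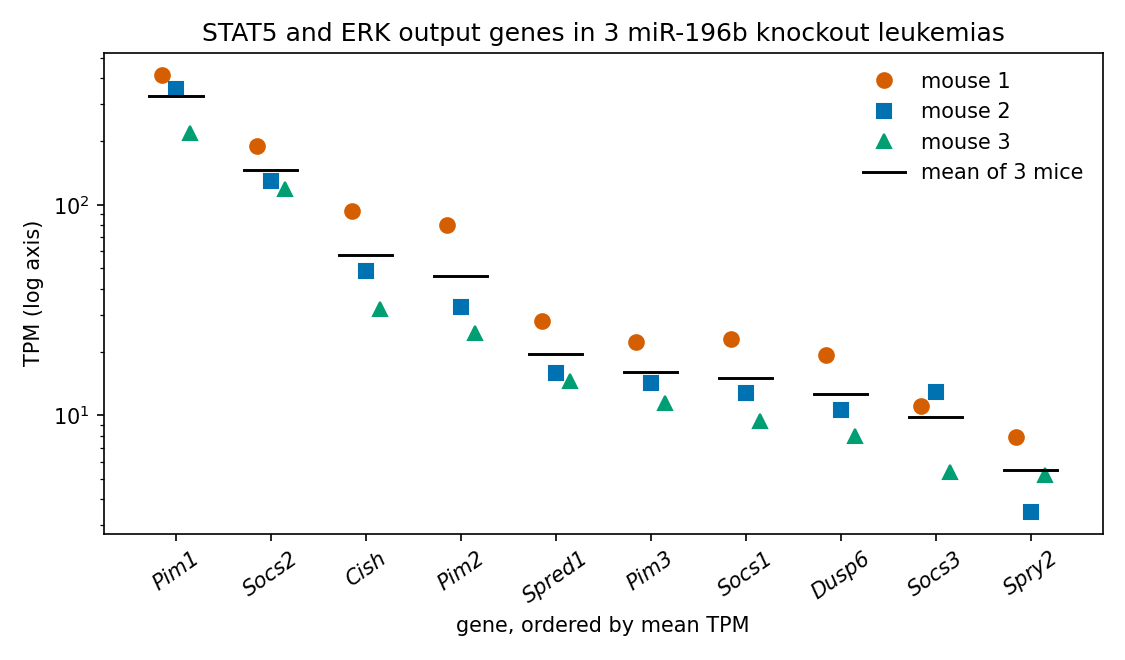
TPM (log axis) of each member gene in each mouse, with the mean of the 3 mice as a bar, ordered by mean. Pim1 (329 TPM) and Socs2 (146 TPM) stand above the rest, and the symbol of mouse 1 is the top one for every gene but Socs3.

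The order of mean levels was Pim1, Socs2, Cish, Pim2, Spred1, Pim3, Socs1, Dusp6, Socs3 and Spry2. Of the 9 pairs of neighbours in this order, 7 had the same direction in all 3 mice. Pim1 exceeded Socs2 by 1.14 ± 0.28 on the log2(TPM + 1) scale, Socs2 exceeded Cish by 1.43 ± 0.42, and Pim2 exceeded Spred1 by 1.06 ± 0.39 (SD of the difference within a mouse, n = 3). Cish exceeded Pim2 by 0.38 ± 0.17, Spred1 exceeded Pim3 by 0.26 ± 0.10 and Socs1 exceeded Dusp6 by 0.23 ± 0.02. Other neighbours did not differ beyond their spread: Pim3 against Socs1 was 0.12 ± 0.16, Dusp6 against Socs3 was 0.33 ± 0.53, and Socs3 against Spry2 was 0.70 ± 0.83. In the last of these pairs Socs3 was nevertheless the higher in all 3 mice.

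Across mice the members moved largely together. Mouse 1 had the highest value for 9 of 10 members, all but Socs3, against 48.6% of all expressed genes. Mouse 3 had the lowest value for 9 of 10, all but Spry2, against 42.6%. For 8 of 10 members mouse 1 was the highest, mouse 2 between and mouse 3 the lowest, against 26.0% of expressed genes. After each mouse was scaled to a common upper quartile, a shift of -0.08 log2 units for mouse 1 and of 0.07 for mouse 3, the counts of members were again 9, 9 and 8. The shares of all expressed genes were then 35.6%, 30.5% and 16.6%. No group comparison lies behind these counts, and each mouse is a single library.

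The sizes were modest. The median difference between mouse 1 and mouse 3 was 0.92 log2 units over the members and 0.13 over all expressed genes, and between mouse 1 and mouse 2 it was 0.79 and 0.08. Between mice 2 and 3 the medians were 0.39 and 0.05. Leaving mouse 1 aside, 9 of 10 members were higher in mouse 2 than in mouse 3, against 57.1% of expressed genes, and the exception was Spry2.

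**Figure D2:**
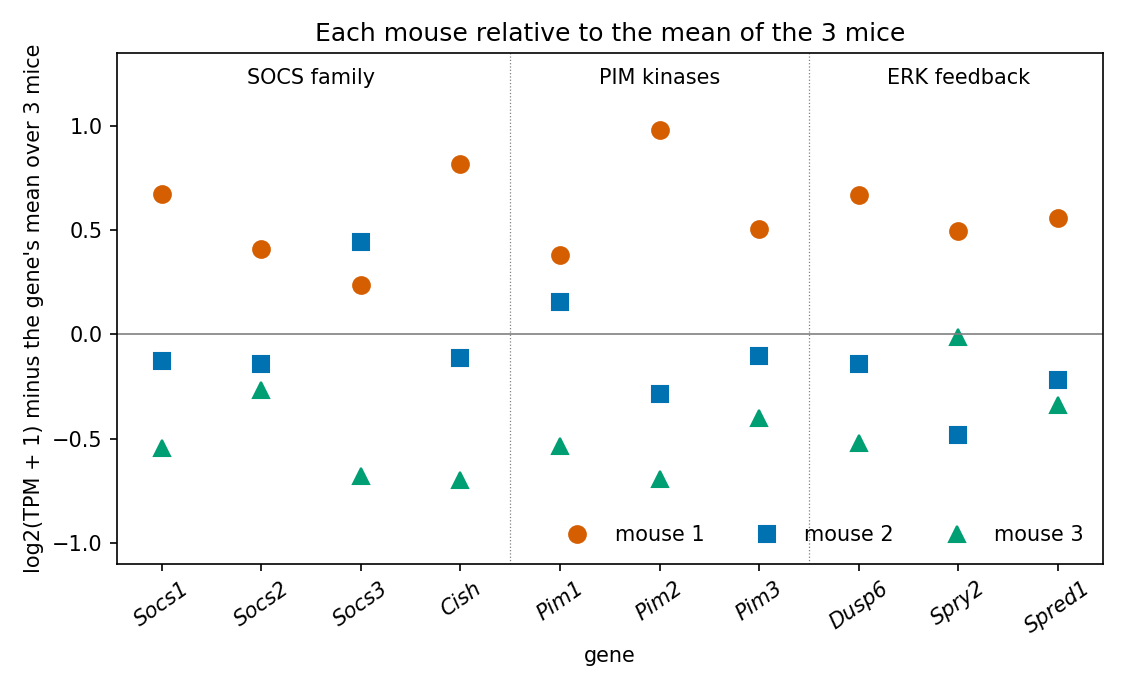
For each member, log2(TPM + 1) in each mouse minus the gene's mean over the 3 mice, grouped by family. Mouse 1 lies above 0 for all 10 genes, mouse 3 lies below 0 for all 10, and Socs3 and Spry2 show the 2 departures from the common order.

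A 2-fold difference, that is 1 unit on the log2(TPM + 1) scale, between the highest and the lowest mouse was reached by 5 of 10 members, against 8.57% of expressed genes. These were Pim2 (1.67), Cish (1.52), Socs1 (1.22), Dusp6 (1.19) and Socs3 (1.12). Spry2 (0.98), Pim1 (0.92), Pim3 (0.91) and Spred1 (0.90) stood just under that limit, and Socs2 (0.67) had the smallest range. Mouse 1 exceeded mouse 3 by 2-fold for 4 members, against 2.84% of expressed genes. It exceeded mouse 2 by 2-fold for Pim2 alone, against 2.09%. Mouse 2 exceeded mouse 3 by 2-fold for Socs3 alone, against 1.30%. Without mouse 1 the count over all pairs was 1 of 10 (Socs3), and without mouse 3 it was also 1 of 10 (Pim2). Cish, Socs1 and Dusp6 passed only between mouse 1 and mouse 3. On the ratio of TPM without a pseudocount, 6 members passed, with Spry2 added at 2.25-fold.

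The SD of the members on the log2(TPM + 1) scale ran from 0.36 to 0.87 with a median of 0.54, and the median over all expressed genes was 0.21. Each member had a wider spread than at least 79.8% of expressed genes, the value for Socs2, and Pim2 reached 97.7%. Without mouse 1 the median was 0.29 over the members and 0.14 over all expressed genes.

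**Figure D3:**
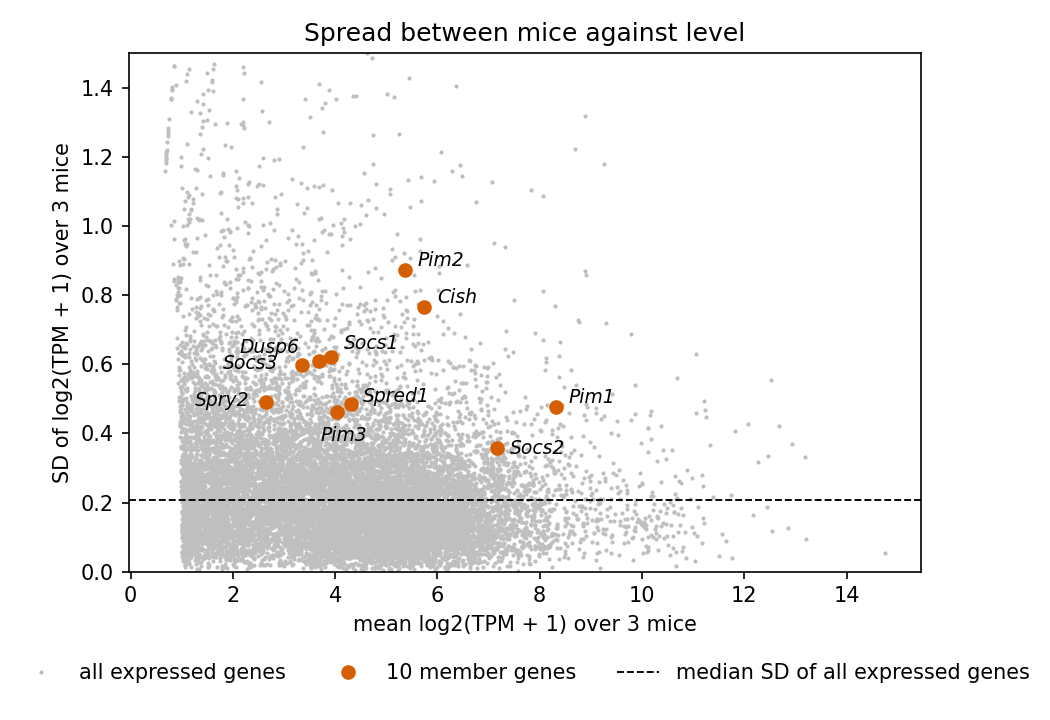
SD of log2(TPM + 1) over the 3 mice against the mean of log2(TPM + 1), for all expressed genes (grey) and the 10 members (orange). All members lie above the dashed median of 0.21. The axis ends at 1.5, and 65 expressed genes with a larger SD are not drawn.

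The genes upstream are given next, beginning with the receptor. Flt3 itself stood at 146, 157 and 106 TPM and Kit at 139, 149 and 133 TPM. Neither had its highest value in mouse 1, and both were lowest in mouse 3, as most members were. Dnmt3a, the DNA methyltransferase gene that was engineered, stood at 52.2, 64.9 and 54.6 TPM. The STAT5 genes spanned less than the 2-fold limit, Stat5a at 56.8, 49.0 and 46.2 TPM and Stat5b at 45.1, 44.1 and 47.0 TPM. Of the 11 genes listed as Janus kinases and STATs, 4 were highest in mouse 1, against 48.6% of expressed genes. Jak1 was the highest of the list, at 141, 130.4 and 134 TPM, and Stat4 the lowest, at 15.6, 11.8 and 13.9 TPM.

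Of 15 genes listed from RAS to ERK, 14 were in the table and 0 passed the 2-fold limit. Ksr1, a scaffold of the cascade, was the lowest at 21.7, 19.1 and 19.2 TPM. The median SD of this list was 0.11. Of the 14, 10 were highest in mouse 1 as deposited, against 48.6% of expressed genes. After upper-quartile scaling 4 were, against 35.6%, so the small differences in this list depend on the scaling. Among 18 receptors and adaptors 4 passed the limit, against 8.57% of expressed genes. Grb2, the adaptor that links receptors to RAS, was the highest at 209, 245 and 229 TPM. Csf1r, Csf3r and Epor, receptors of monocytes, neutrophils and red cell precursors, were highest in mouse 3, at 24.8, 45.6 and 9.83 TPM. Csf2rb2, a mouse-specific IL-3 receptor chain, was highest in mouse 2, at 24.9 TPM.

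Other output genes were read from lists that overlap the members in function. Of 8 other STAT5 targets, 6 were highest in mouse 1, against 48.6% of expressed genes, and 7 were lowest in mouse 3, against 42.6%. After upper-quartile scaling 5 were highest in mouse 1, against 35.6%. The median difference between mouse 1 and mouse 3 was 0.56 log2 units as deposited. Ccnd2, a D-type cyclin, was the only one past 2-fold, at 153, 74.0 and 55.4 TPM. Myc stood at 258, 167 and 160.4 TPM, and Bcl2l1, which encodes BCL-XL, at 37.7, 29.1 and 22.3 TPM. Mcl1, a survival gene of the BCL2 family, was the highest of the list and was highest in mouse 2, at 299 TPM. Ccnd3 was the lowest of the list, at 3.43, 1.51 and 3.12 TPM.

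The 4 remaining Socs genes, Socs4 to Socs7, spanned little, and 0 of 4 passed the 2-fold limit. Socs6 was the highest at 31.1, 29.3 and 25.4 TPM, and Socs5 the lowest at 15.8, 12.8 and 11.2 TPM. Their median difference between mouse 1 and mouse 3 was 0.32 log2 units.

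Other ERK feedback genes differed in their highest mouse but mostly shared the lowest. Of 13 listed, 9 were expressed, and 8 of these were lowest in mouse 3, against 42.6% of expressed genes. Highest in mouse 1 were 4 of the 9, against 48.6% of expressed genes, and 5 were highest in mouse 2. Dusp1, an immediate early phosphatase, was the highest at 478, 790 and 437 TPM. Dusp10, which acts mainly on p38 and JNK, was the only one past 2-fold, at 23.5, 51.9 and 22.7 TPM, high in mouse 2. The lowest expressed gene was Spry1 at 4.30, 3.61 and 2.33 TPM. Below the filter were 4 genes, Dusp4 (1.31, 0.70 and 0.43 TPM), Dusp9 (1.26, 0.71 and 0.80 TPM), Spry4 (0.79, 0.30 and 0.17 TPM) and Spry3 (0.016, 0 and 0.015 TPM). Dusp4 and Spry4 had the order of mice of most members, and Dusp9 and Spry3 did not; these 4 were added after their values were seen.

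Genes that ERK drives in transcription fell into opposite directions. Etv5, an ETS factor, was at 12.8, 3.08 and 2.24 TPM, the largest excess of mouse 1 over mouse 3 in the pathway lists, 2.09 log2 units. Egr1, Egr2, Egr3, Fos and Phlda1 were all lowest in mouse 1. Egr2 stood at 3.15, 15.9 and 11.3 TPM and Egr3 at 3.82, 18.7 and 12.5 TPM, and Fos, the highest of the list, stood at 563, 1455 and 821 TPM. In all, 6 of the 9 expressed genes of this list passed the 2-fold limit, against 8.57% of all expressed genes. Lowest in mouse 1 were 6 of the 9, a share not computed for all expressed genes. Over all 7 pathway lists 13 of 73 expressed genes passed the 2-fold limit, 2 without mouse 1 and 8 without mouse 2. Within the list of ERK-driven genes the lowest expressed was Fosl1 at 4.47, 2.82 and 2.89 TPM.

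**Figure D4:**
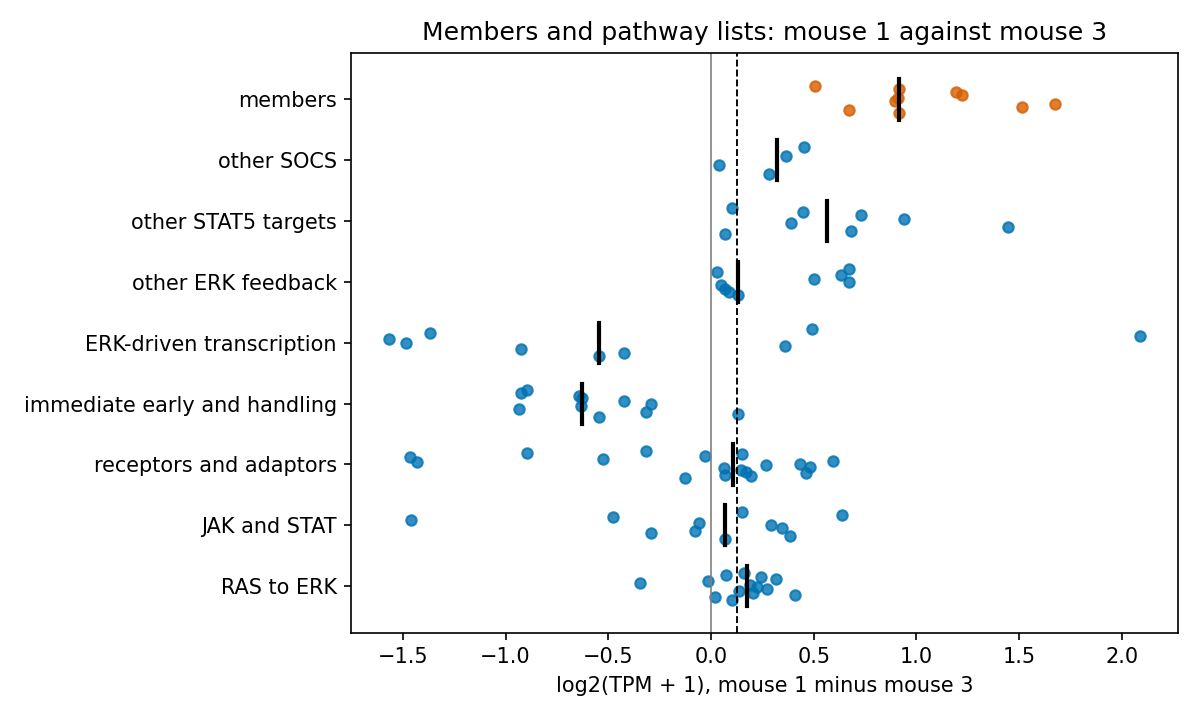
Difference between mouse 1 and mouse 3 on the log2(TPM + 1) scale for the members (orange) and for the expressed genes of 8 lists (blue), 1 point per gene, with each list's median as a black bar. The dashed line is the median of all expressed genes, 0.13. The members' median is 0.92. The lists of ERK-driven transcription and of immediate early genes share Fos, Egr1 and Ier2, and both have medians below 0.

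Other RNA differed between the same mice. Of 11 immediate early genes, which also respond to tissue handling, 10 were lowest in mouse 1 and 10 highest in mouse 2, with summed values of 2499.8, 5186 and 3444 TPM. Of these 11, Fos, Egr1, Ier2 and Dusp1 were also in the ERK lists above. All 9 heat shock genes and all 10 interferon response genes were lowest in mouse 1, with sums of 3560.4, 7417 and 8774 TPM and of 92.3, 239.7 and 238 TPM. Of the 9 heat shock genes 7 passed the 2-fold limit, against 8.57% of expressed genes. Hspa1b had the widest range, at 29.1, 1011 and 1167 TPM. Also lowest in mouse 1 were all 10 markers of late neutrophils, whose summed TPM was 2499.9, 6495 and 21525, and all 7 dendritic cell markers, with 395, 874 and 598 TPM. The shares of all expressed genes lowest in mouse 1 or highest in mouse 2 were not computed, so those counts have no background beside them. Of the 5 expressed mast cell and basophil markers, 4 were highest in mouse 1, as most members were, but 2 were lowest in mouse 3 and 2 had the order of mice that 8 members had. Over all 6 markers the sums were 131, 47.8 and 52.4 TPM, and Cpa3, a mast cell protease, stood at 51.9, 14.6 and 13.2 TPM. Monocyte and macrophage markers summed to 546, 671 and 950 TPM, erythroid markers to 199.6, 153 and 259 TPM, B cell markers to 49.4, 91.5 and 126 TPM, and T and NK cell markers to 190.2, 138 and 183 TPM. Single genes carried 3 of these sums: Tfrc (149.5, 120.2 and 176 TPM) that of the erythroid markers, Ighm (32.2, 76.8 and 108 TPM) that of the B cell markers, and Nkg7 (153, 101 and 143 TPM) that of the T and NK cell markers. Ly6c2 (291, 229 and 559 TPM) also made up much of the monocyte and macrophage sum. Of the 7 expressed markers of that list, 4 were highest in mouse 3, 2 in mouse 2 and 1 in mouse 1. No marker in the table was at 0 in all 3 mice. Among the low markers were Fcer1a (0.079, 0 and 0.073 TPM), of the high-affinity IgE receptor of mast cells and basophils, and Cd3e (0.32, 0.66 and 0.98 TPM), of the T cell receptor complex. Markers of the myeloid progenitors that the c-Kit enrichment should keep were high throughout, with sums of 3129, 2271 and 4032 TPM. Mpo (1081, 864 and 1632 TPM) was the largest part of these sums, which do not stand for each marker. Of the 7 markers, 3 were highest in mouse 1, 1 in mouse 2 and 3 in mouse 3. The part of any of these in the members' values was not tested.

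For the 5 members with an SD of at least 0.5, the expressed genes with the nearest profile were taken, by the root mean square difference of log2(TPM + 1) after the mean of each gene was removed. For Socs1 the nearest was another member, Dusp6 (0.016), followed by S100a6, Scml4, Snx21 and Napsa. For Dusp6 they were S100a6 (0.0043), Socs1, Tcrg-C3, Snx21 and Napsa. Socs1 and Dusp6, of the SOCS and the ERK groups, thus had nearly the same profile. For Socs3 they were Bhlhe40 (0.0057), Gm12757, Gm3625, Gm10052 and Errfi1. Those of Cish were Gm15373 (0.024), Car12, Gm12275, Gm8741 and Il18r1, and those of Pim2 were Pcsk4 (0.013), Bcam, Fbp1, Gm15421 and Gm16241. Over 3 mice such closeness is easily met: 87 genes lay within 0.1 of Dusp6, 78 of Socs1, 42 of Socs3, 31 of Cish and 14 of Pim2.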

How the data were processed

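Expression came as 1 deposited table with a row per gene symbol. The values are labelled log2 FPKM there, but they are linear and the 3 columns used sum to 929731, 927169 and 928490, so the deposited values were read as TPM. The submitters' processing notes name kallisto and mm10, and the annotation is not given in the sources used here. TPM keeps no depth: the depth reached is unknown, and no counting interval can be given.

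Rows without a symbol (795) or with a date in its place (27) were left out (0.734% to 0.787% of the sums), and 90 symbols on several rows were summed. The table's 3 other per-sample columns match no sample here and were not used. With 1 group no test was made: values are given per mouse, with the mean and SD, and log2(TPM + 1) where stated. Nothing says that mice shared a litter or a day.

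Members and lists were chosen with earlier results of these data known. Genes named are the members, the highest and lowest of each pathway list, those past 2-fold (some genes that this rule names are not reported here), the engineered or sorted genes and the 5 nearest profiles. Protein comparisons were planned and not made, since no protein table was used here. Counts and motif searches were tested on simulated data. The simulated differences were well above the 2-fold limit and the simulated spread was below that of the members, so calls near the limit were not checked. Alternatives covered scaling, pseudocount (0.1), filters and each mouse left out. Python 3.11.15, numpy 2.4.6, pandas 2.3.3 and matplotlib 3.10.9 were used.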

Additional observations from a re-analysis of the deposited data

How the results depend on the processing

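The values rest on 1 library per mouse and 1 group, so only the spread between mice bounds them, and the depth behind the low genes is unknown. The number of members past 2-fold ranged from 1 to 4 when each mouse was left out, against 5 with all mice. The range between mice cannot widen when a mouse is dropped, so this count could only fall or stay. With all mice it was 6 with a pseudocount of 0.1 and 6 on the ratio of TPM, which was added after seeing the data. The members' median SD ranged from 0.290 (without mouse 1) to 0.648 (without mouse 2), against 0.544. Pathway list genes past 2-fold ranged from 2 (without mouse 1) to 10, against 13. Upper-quartile scaling moved none of these past 1.5 times. The number of members highest in mouse 1 stayed between 9 and 10 wherever mouse 1 was kept. Leaving out mouse 2 or mouse 3 could only keep or raise this count. Upper-quartile scaling could have lowered it, and there it was 9. With a mouse left out, 21 of 30 member SDs stayed within 1.5 times of the value over 3 mice. Of the other 9, 7 moved without mouse 1 and 2 without mouse 3. All 9 fell, and the mouse left out was the one furthest from the rest for that gene. Why that mouse stood apart was not tested. No paired analysis was possible because all mice belong to 1 group.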
